A study of Mus musculus with 2 samples.

Results

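Matrix metalloproteinases and their tissue inhibitors were examined in mouse primary chondrocytes as 10 genes taken from a list of names: the proteases Mmp2, Mmp3, Mmp9, Mmp13, Mmp14, Mmp16 and Mmp19 and the inhibitors Timp1, Timp2 and Timp3. All 10 had a row among the 13138 genes of the table. The cells were grown ex vivo as micromass cultures, dense drops of cells that lay down cartilage-like matrix. There were 2 libraries of messenger RNA, 1 per group, both from cells of strain C57Bl/6. The cells of the first were transduced with an adenovirus for Cre recombinase and carry the genotype label hdac3-knockout, and those of the second received a control adenovirus for green fluorescent protein (GFP) and carry the label wild-type. Age, the number of animals pooled and the altered Hdac3 allele are not given in the labels.

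Matrix metalloproteinases are zinc enzymes that are made as inactive precursors and cut the proteins of the extracellular matrix once their propeptide is removed. TIMP proteins bind the active site and block it, so the local outcome depends on enzyme, activator and inhibitor together. In cartilage the collagenase MMP13 cleaves type II collagen, the stromelysin MMP3 cleaves proteoglycans and activates procollagenases, and TIMP3, which is held in the matrix, also blocks the aggrecanases. The values below are RNA levels and say nothing of enzyme activity.

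Levels are given as log2 normalized counts, as the authors deposited them, and every difference is the library labelled Cre minus the library labelled GFP. With 1 library per group there is no replicate error, no test and no p-value, and each difference compares these 2 libraries, not the conditions. Read totals are not recoverable from the values, so the depth is unknown. Hdac3 itself stood at 10.68 and 10.69, a difference of -0.0043, so its level did not separate the libraries as the labels would, and they are called by their labels. The labels raise a further doubt: the source field of both RNA libraries names a chromatin immunoprecipitation (K27ac) sample, and the groups were taken from the transduction field. All 9 chondrocyte markers looked for had a row, among them Col2a1 at 19.97 under Cre and 20.35 under GFP. All 9 were lower in the library labelled Cre, with a median of -0.55, where 50.1% of the 12809 genes compared below were lower.

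Of the 10 members, 6 matched an entry in RefSeq's promoter table, and Mmp2, Mmp9, Mmp16 and Mmp19 did not. The promoters of the 4 with the widest differences among those 6 are shown here, so that 3 members with more RNA in the library labelled Cre and 1 with less can be compared by their letters. Each is the 250 bases before the start of the gene in RefSeq on GRCm38.p6, on the plus strand, 5′ to 3′, and capitals mark the AP-1 motif TGANTCA. Mmp3 lies at chr9:7445572-7445821, Mmp13 at chr9:7272264-7272513, Timp1 at chrX:20869916-20870165 and Timp3 at chr10:86300162-86300411. In GENCODE M21, the annotation used for gene positions below, Timp3 starts at 86300372, which is inside its window.
Mmp3: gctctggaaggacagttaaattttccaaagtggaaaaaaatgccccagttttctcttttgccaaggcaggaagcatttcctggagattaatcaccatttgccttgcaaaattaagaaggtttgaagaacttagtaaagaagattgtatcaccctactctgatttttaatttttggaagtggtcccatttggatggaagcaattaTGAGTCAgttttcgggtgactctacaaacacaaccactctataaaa
Mmp13: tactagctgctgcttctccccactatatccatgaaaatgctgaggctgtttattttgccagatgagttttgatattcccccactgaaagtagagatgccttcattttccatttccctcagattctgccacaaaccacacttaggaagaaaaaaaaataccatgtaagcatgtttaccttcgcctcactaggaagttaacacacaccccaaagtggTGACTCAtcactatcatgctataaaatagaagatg
Timp1: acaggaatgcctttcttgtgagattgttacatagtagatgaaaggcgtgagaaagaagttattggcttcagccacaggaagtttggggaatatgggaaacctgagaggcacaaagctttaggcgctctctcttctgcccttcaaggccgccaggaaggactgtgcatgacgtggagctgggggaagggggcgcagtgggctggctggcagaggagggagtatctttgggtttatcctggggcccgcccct
Timp3: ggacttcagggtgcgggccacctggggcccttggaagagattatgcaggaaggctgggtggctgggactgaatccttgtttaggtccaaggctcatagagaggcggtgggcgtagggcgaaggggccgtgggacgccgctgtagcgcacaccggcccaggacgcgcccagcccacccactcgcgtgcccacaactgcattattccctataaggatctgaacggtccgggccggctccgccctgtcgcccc

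The windows of Mmp3 and Mmp13 each held 1 match to the AP-1 motif, TGAGTCA from 46 to 40 bases before the start in Mmp3 and TGACTCA from 35 to 29 bases before it in Mmp13. Both also held the TATA motif TATAAA between that match and the start, from 7 to 2 bases before it in Mmp3 and from 16 to 11 in Mmp13. Distances are counted from the gene start in RefSeq, which need not be the base where transcription begins. Of 32851 promoter windows of the same length, 6.75% held the AP-1 motif and 12.4% the TATA motif on either strand. Of the 11746 windows of genes compared below, 4.59% held the AP-1 motif and 6.53% the TATA motif. No AP-1 or TATA match was found in the windows of Timp1, Timp2, Timp3 and Mmp14, the other members with an entry. The RUNX motif TGTGGT, present in 14% of windows, matched once in Mmp13, from 118 to 113 bases before the start on the opposite strand, and once in Mmp14. The PEA3 motif AGGAAG, present in 29.5% of windows, matched 2 times in Mmp13, 2 times in Timp1 and 1 time each in Mmp3, Mmp14 and Timp3. The C/EBP motif TTGCNNAA matched once in Mmp3 and in none of the 5 other members with an entry (9.56% of windows), and the NF-kappaB motif GGGNNTTCC in none of the 6 (4.98% of windows). In the 11746 windows of genes compared, the shares were 10.7% for RUNX, 28.3% for PEA3, 7.48% for C/EBP and 6.08% for NF-kappaB. Motifs were searched on both strands. A match is a description of letters, not a binding site.

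The stromelysin gene Mmp3 showed the widest difference of the 10 members. Its log2 normalized count was 16.50 with Cre and 13.23 with GFP, a difference of 3.27 or 9.63-fold. Among the 12809 genes compared, those whose mean reached 50 on the linear scale, only 1 stood higher, the acute-phase gene Saa3, and the chitinase-like gene Chi3l1 came next below it, at 3.24. The collagenase gene Mmp13 stood at 16.24 and 14.41, a difference of 1.84 or 3.57-fold, in place 18 of all genes. Its neighbours in that order were Hpx, the haem-binding hemopexin gene (3.67-fold), and the protease inhibitor gene Serpina3n (3.47-fold). The gelatinase gene Mmp9, known in growing bone from osteoclasts and the invasion of cartilage by vessels, stood at 11.32 and 10.10, a difference of 1.22 or 2.33-fold, in place 56. The growth factor gene Ereg (1.23) and the prostaglandin synthase gene Ptgs2 (1.22) flanked it.

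The 4 other proteases lay nearer to level. Mmp2, the second gelatinase gene, stood at 13.86 with Cre and 13.38 with GFP (0.47), and Mmp19, a basement membrane protease gene, at 9.98 and 9.71 (0.27). Mmp14, which encodes the membrane-type enzyme that activates the precursor of MMP2, was almost equal, at 13.24 and 13.14 (0.10). Mmp16, a further membrane-type enzyme gene, was the only protease of the 7 with less RNA in the library labelled Cre, at 9.73 against 10.13 (-0.41).

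The inhibitors differed in direction. Timp1 stood at 13.57 with Cre and 12.61 with GFP, a difference of 0.96 or 1.95-fold, in place 100 between the phosphodiesterase gene Pde4b and the complement gene C1ra. Timp2, whose protein also takes part in the activation of MMP2 at the cell surface, was at 14.55 and 14.81 (-0.26). Timp3 showed the widest difference of the lower members, at 15.36 and 16.21, which is -0.85, or 1.81-fold more with GFP. Counted from the lowest difference it held place 30, next to Thrsp (-0.85) and the Wnt inhibitor gene Nkd1 (-0.86).

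**Figure D1:**
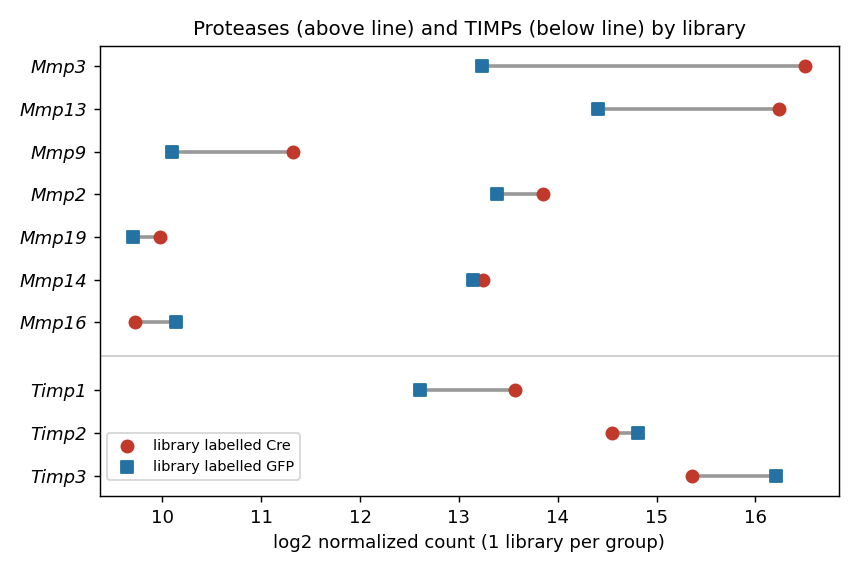
Log2 normalized counts of the 7 proteases and 3 inhibitors in the library labelled Cre (circles) and the library labelled GFP (squares), joined by a line for each gene, with 1 library per group and so no error bars. The lines of Mmp3, Mmp13 and Mmp9 are the longest among the proteases, and Timp1 and Timp3 point in opposite directions.

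Of the 10 members, 7 were higher with Cre and 3 were lower by any amount, with a median of 0.37, where 49.9% of all 12809 genes were higher, 50.1% were lower and the median was -0.00041. By 2-fold or more, 3 of 10 were higher, against 0.734% of all genes, and 0 of 10 were lower, against 0.0703%. By 1.5-fold or more, 4 of 10 were higher (2.25% of all genes) and 1 of 10, Timp3, was lower (0.952%). Genes with few reads seldom reached 2-fold in this table. Among the 6108 genes at least as abundant as Mmp19, the member with the lowest mean, 1.03% were 2-fold higher and 0.115% 2-fold lower. The members were named with the results of these libraries known, so their count describes them and does not single them out.

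Another scale for each gene is given by the 500 genes nearest to it in mean level. For Mmp9 these had mean log2 values from 10.61 to 10.81. For the most abundant members they are not close, with 13.03 to 16.53 for Mmp3 and 13.06 to 17.96 for Timp3. Among the 500 genes of each member, 1 differed upwards by as much as Mmp3, 8 by as much as Mmp13, 3 by as much as Mmp9 and 12 by as much as Timp1. Downwards, 4 of 500 reached the difference of Timp3 and 15 that of Mmp16. For Mmp2 (32 genes), Mmp19 (37), Timp2 (66) and Mmp14 (81), differences of that size in that direction were more common. Abundant genes spread more widely: for the 520 genes whose mean log2 level was at least 13, the 5th and 95th percentiles were -0.52 and 0.58. Mmp2, Mmp14 and Timp2, which are in that range of abundance, lay inside these limits, and Mmp3, Mmp13, Timp1 and Timp3 outside. The 500 genes nearest to Mmp3, Mmp13, Timp2 and Timp3 all had means of at least 13. For these members both scales thus use nearly the same genes.

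**Figure D2:**
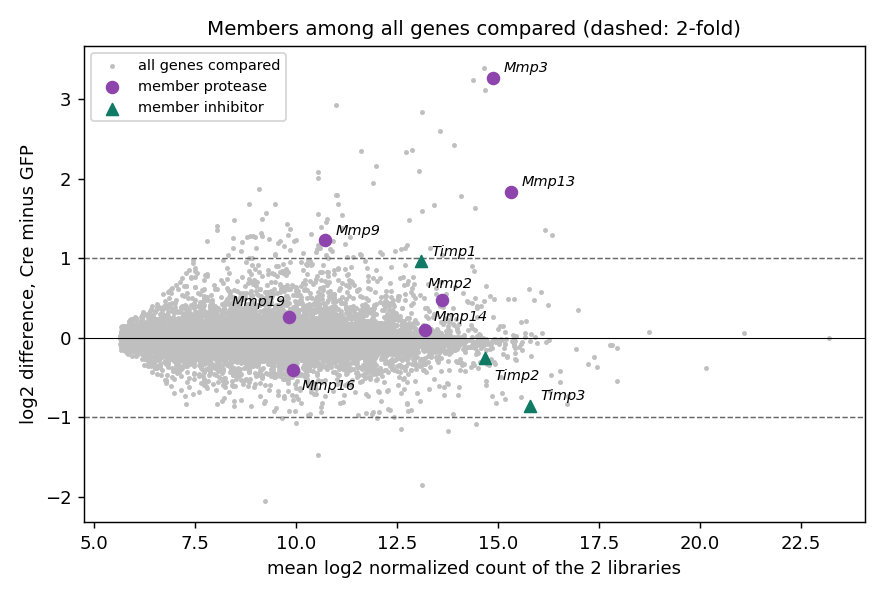
Log2 difference (Cre minus GFP) against the mean log2 normalized count for 12809 genes (grey), with the 7 proteases as circles and the 3 inhibitors as triangles. Dashed lines mark 2-fold, which Mmp3, Mmp13 and Mmp9 pass and Timp1, at 0.96, just misses.

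To set levels of different genes side by side, normalized counts on the linear scale were divided by the exon length of each gene in GENCODE M21, an annotation that need not be the one the authors counted on. In the library labelled GFP the order per kilobase began with Timp3 (9320), Mmp13 (8133), Timp2 (7373), Timp1 (7021), Mmp3 (5349) and Mmp2 (3173). In the library labelled Cre it began with Mmp3 (51516), Mmp13 (29030), Timp1 (13681), Timp2 (6172), Timp3 (5155) and Mmp2 (4397). Timp3 thus stood in the first place with GFP and in the fifth with Cre, and Mmp3 in the fifth with GFP and in the first with Cre. The last 4 places were the same in both libraries: Mmp14, Mmp9, Mmp19 and Mmp16. With no replicate, neighbours in either order cannot be said to differ.

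Among the 11585 genes with an exon length, Mmp3 ranked 197 per kilobase in the library labelled GFP and 8 in the library labelled Cre. Mmp13 ranked 123 and 21, Timp1 141 and 65, and Timp3 104 and 203. Mmp9, for all its 2.33-fold difference, made up 1.64% of the summed protease level per kilobase with GFP and 0.826% with Cre. Mmp3 and Mmp13 together held 71.5% of that sum with GFP and 91.9% with Cre. Among the inhibitors, Timp3 held 39.3% of the sum with GFP and 20.6% with Cre, and Timp1 29.6% and 54.7%.

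The balance of proteases to inhibitors was higher in the library labelled Cre. The mean log2 value of the 7 proteases was 12.02 with GFP and 12.98 with Cre, while that of the 3 inhibitors was 14.54 and 14.49, so the protease mean minus the inhibitor mean differed by 1.01, or 2.02-fold. Gene length cancels in this difference between libraries. Summed per kilobase, proteases stood at 18848 against 23715 for inhibitors with GFP, a ratio of 0.795, and at 87672 against 25008 with Cre, a ratio of 3.51. The sum weights the most abundant genes, and the mean weights all genes alike. Mmp3 decided much of the size: without it the mean balance differed by 0.63, and without Mmp3, Mmp9 and Mmp13, an alternative chosen after seeing the data, by 0.16. Leaving out Timp3 gave 0.61 and leaving out Timp1 1.52. With the 5 secreted proteases alone it was 1.46. With medians in place of means it was 0.35. That value is the single pair Mmp14 over Timp2, the middle genes of their groups in both libraries.

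The single ratios depended on the inhibitor. There are 21 pairs of a protease and an inhibitor, all made from the same 10 differences and so not independent. Against Timp3, all 7 proteases had a higher ratio in the library labelled Cre, 5 of them by 2-fold or more. Mmp3 over Timp3 differed by 4.12, or 17.4-fold. Timp3 held place 30 of 12809 from the lowest difference, so almost every gene compared would have a higher ratio over it. The direction of these 7 pairs thus restates the difference of Timp3. Against Timp2, 6 of 7 were higher and 3 by 2-fold. Timp2 held place 832 from the lowest, so most genes would be higher over it too. Against Timp1, only Mmp3 (2.31), Mmp13 (0.87) and Mmp9 (0.26) were higher, while Mmp2 (-0.49), Mmp19 (-0.69), Mmp14 (-0.87) and Mmp16 (-1.37) were lower. Timp1 held place 100 of 12809 from the highest difference, so almost every gene compared would have a lower ratio over it. The 4 lower pairs thus restate the difference of Timp1. Mmp13 over Timp3, a collagenase over an inhibitor held in the cartilage matrix, had a ratio per kilobase of 0.873 with GFP and 5.63 with Cre. Mmp14 over Timp2, which together act on the precursor of MMP2, had 0.206 with GFP and 0.263 with Cre.

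**Figure D3:**
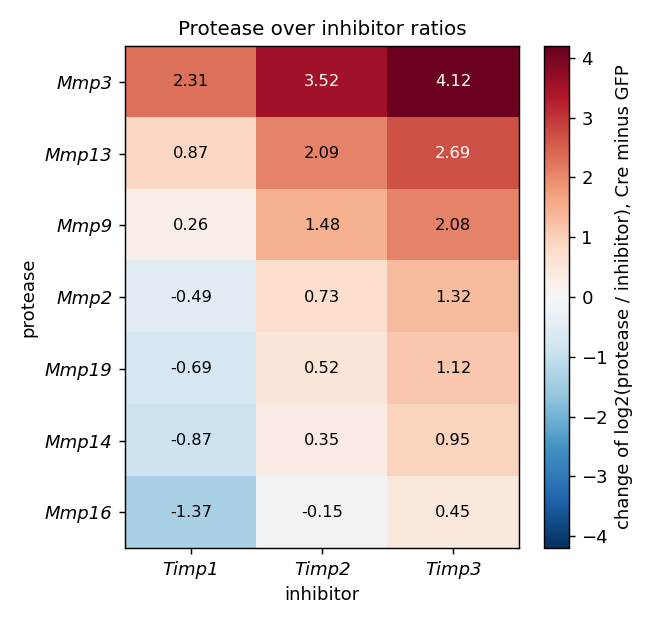
Change of the log2 ratio of each protease (rows) over each inhibitor (columns), Cre minus GFP, with red for a higher and blue for a lower ratio in the library labelled Cre. The Timp3 column is red in all 7 rows, from 0.45 for Mmp16 to 4.12 for Mmp3, whereas the Timp1 column turns blue for 4 of 7 proteases. Timp3 was itself among the lowest differences of all genes and Timp1 among the highest. Most genes would therefore be red over Timp3 and blue over Timp1.

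Mmp3 and Mmp13 are neighbours on chromosome 9, in a cluster of related protease genes. Mmp3 lies at 7445822 to 7455975 and Mmp13 at 7272514 to 7283331 on the plus strand (GENCODE M21, GRCm38), with 173 kb between their starts. Within 500 kb of Mmp3 there were 14 protein-coding genes in the annotation, of which 8 were compared, and all 8 were higher in the library labelled Cre, with a median of 0.30, where 49.9% of all genes were higher by any amount. Beside Mmp13 these included Mmp12, the macrophage elastase gene, at 11.92 and 11.55 (0.37), and Birc3, an NF-kappaB-induced ubiquitin ligase gene, at 10.15 and 9.22 (0.93). The others were Birc2 (0.33), Dcun1d5 (0.27), Tmem123 (0.19), Dync2h1 (0.14) and Yap1 (0.13). Other protease genes of the cluster, such as Mmp8 and Mmp10, had no row and were not analysed here. How the authors treated reads that align to several related genes is not given in the sources used here.

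The other members did not share a neighbourhood. Within 500 kb of all members there were 113 compared neighbours that are not members, with a median of 0.04, 1 of them 2-fold higher and 0 2-fold lower, shares near those of all genes (0.734% and 0.0703%). The 1, named after its value was seen, was Socs3, a feedback inhibitor gene of cytokine signalling 331 kb from Timp2, at 10.41 and 9.30 (1.10). At a distance of 1 Mb it was joined by Slpi, a leukocyte protease inhibitor gene 552 kb from Mmp9, at 11.60 and 9.51 (2.08). Of the 113, 68 lay above 0, beside 49.9% of all genes. Counted for each member, members among the neighbours included, those above 0 were 8 of 8 around Mmp3, 5 of 5 around Mmp13, 3 of 4 around Mmp2, 15 of 20 around Mmp9, 15 of 22 around Mmp14, 12 of 29 around Mmp19, 4 of 12 around Timp1, 11 of 13 around Timp2 and 1 of 6 around Timp3. Mmp16 had no protein-coding gene within that distance.

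**Figure D4:**
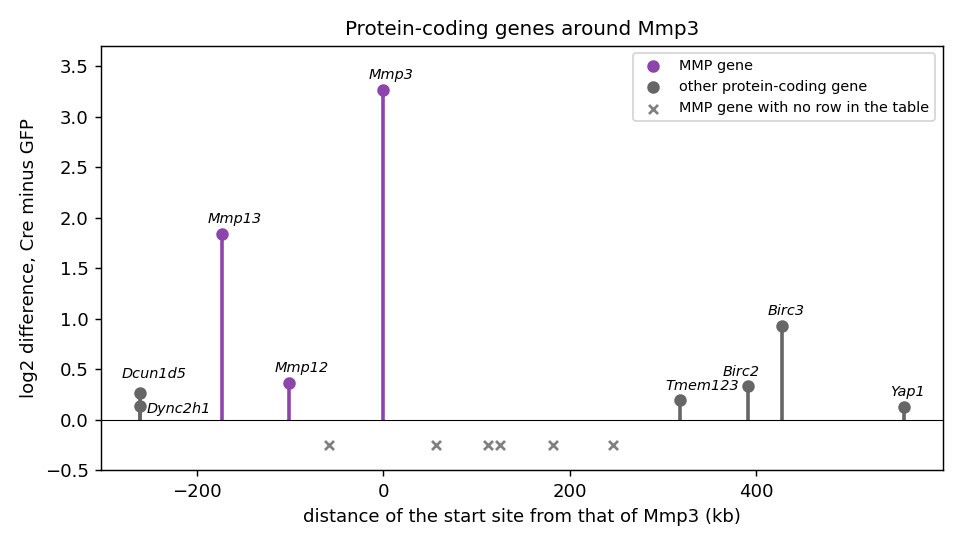
Log2 difference (Cre minus GFP) of protein-coding genes within 500 kb of Mmp3, placed by the distance of their start from that of Mmp3 in kb. Crosses mark protease genes with no row in the table. All 9 measured genes lie above 0, with Mmp3 (3.27) and Mmp13 (1.84) far above the rest.

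Some members overlap other genes, and the strand setting of the counting is not given. Timp1 (chromosome X, 20870166 to 20874735) lies inside Syn1 and Timp3 (chromosome 10, 86300372 to 86349506) inside Syn3, synapsin genes on the opposite strand. Only whole gene spans were compared here, not exons. Without strand, reads of such partners cannot be told apart where their exons overlap. Syn1 stood at 6.56 with Cre and 6.44 with GFP (0.13), where Timp1 stood at 13.57 and 12.61. Syn3 stood at 7.57 and 7.89 (-0.32), where Timp3 stood at 15.36 and 16.21. Each synapsin gene differed in the direction of the inhibitor gene it holds, at a far lower level. The part of the synapsin genes in the inhibitor values was not tested. Mmp19 overlaps Tmem198b (-0.0039) on the opposite strand, and Timp2 overlaps Cep295nl on its own strand.

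Of the other protease and TIMP genes looked for, 6 of 17 had a row, with a median of 0.04. By 1.5-fold, 0 of 6 were higher or lower, where 2.25% and 0.952% of all genes were, so few were to be looked for among 6 genes. Their widest differences were those of Mmp12 (0.37), Mmp17 (0.16), Mmp23 (0.13) and Mmp15 (-0.08). Low counts limit this: Mmp17 and Mmp15 had mean log2 values of 6.48 and 6.26, and among the 1344 genes below 7 the standard deviation of the difference over genes was 0.15. Timp4 had no row.

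Genes that activate the precursors differed by member. Of 10 measured, 8 lay above 0, where 49.9% of all genes did, with a median of 0.11. By 2-fold, 0 of 10 were higher or lower, where 0.734% and 0.0703% of all genes were. The proprotein convertase genes Pcsk5 and Pcsk6 differed in opposite directions, Pcsk5 at 10.68 and 9.88 (0.80) and Pcsk6 at 11.40 and 12.10 (-0.70). Plau, the urokinase gene that generates plasmin, was at 10.03 and 10.55 (-0.52), and Bsg, which encodes a cell surface inducer of these proteases, at 15.02 and 14.76 (0.27). By 1.5-fold, 1 of 10 was higher and 1 lower, where 2.25% and 0.952% of all genes were.

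Inhibitors outside the TIMP family and clearance receptors also stayed under 2-fold, as did most genes (0.734% of all genes were 2-fold higher and 0.0703% lower). Of 6 measured inhibitors, 4 were above 0, where 49.9% of all genes were, with a median of 0.11. Reck, a membrane-anchored inhibitor gene, was at 12.54 with Cre and 12.99 with GFP (-0.45), A2m, the gene of the protease trap alpha-2-macroglobulin, at 9.76 and 9.35 (0.41), and Tfpi2 and Serpine2 differed by 0.18 and 0.17. Lrp1, the endocytic receptor that takes up MMP13 and TIMP3, was at 16.44 and 16.03 (0.41). The collagen receptor genes Mrc2, Ddr2 and Ddr1 lay at -0.12, -0.12 and -0.07.

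Genes of the cytokines, receptors and transcription factors known to act on these promoters were mostly higher in the library labelled Cre. All 9 measured cytokine and receptor genes lay above 0, with a median of 0.58, where 49.9% of all genes did, and 2 were at least 2-fold higher, where 0.734% of all genes were: the cytokine gene Lif (1.13) and the TNF receptor gene Tnfrsf1b (1.12). Tnf differed by 0.76 and the oncostatin M receptor gene Osmr by 0.72, and Il1a, Il1b, Il6 and Osm had no row. Of 17 transcription factor genes, 15 lay above 0, again beside 49.9% of all genes, with a median of 0.33. Cebpd (1.45) was the only one of them past 2-fold, followed by its relative Cebpb (0.92), Epas1, the hypoxia-inducible factor 2 alpha gene (0.73), and Junb (0.72). The 7 Fos and Jun genes, a subset formed after their values were seen, ranged from 0.11 to 0.72, with a median of 0.30. Runx2, a regulator of Mmp13 in hypertrophic cartilage, differed by -0.23.

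Of 16 matrix substrate genes, 6 lay above 0, where 49.9% of all genes did, and the median was -0.23. The list shares genes with the chondrocyte markers above, among them Matn3, Acan and Col11a1, and with the fibroblast markers below. The counts of these lists are thus not independent. By 2-fold, 0 of 16 were higher or lower, where 0.734% and 0.0703% of all genes were. By 1.5-fold, 0 of 16 were higher and 3 lower, where 2.25% and 0.952% of all genes were. Matn3 (-0.89), Col10a1 (-0.87), the aggrecan gene Acan (-0.83) and Col11a1 (-0.55) differed most. Col10a1, the collagen of hypertrophic chondrocytes, stood at 10.19 and 11.06, opposite in direction to Mmp13, which the same cells express in growing bone.

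**Figure D5:**
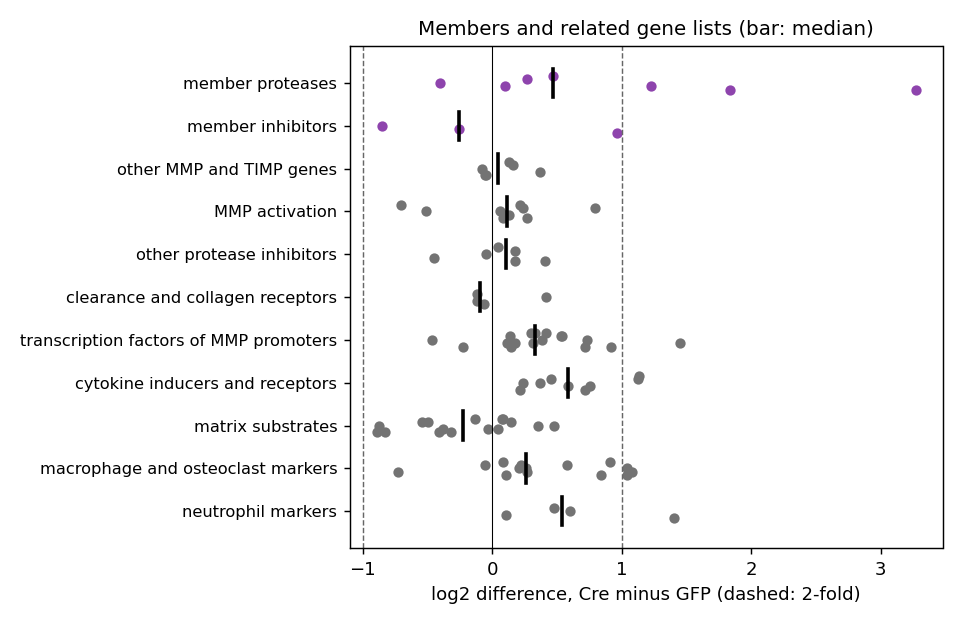
Log2 difference (Cre minus GFP) of each measured gene in the 2 member groups and 9 related lists, with a black bar at the median of each list. Members spread more widely than the other MMP and TIMP genes, whose 6 points lie between -0.08 and 0.37.

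Markers of other cells that make these proteases differed too. Of 18 macrophage and osteoclast markers, 14 were measured, 12 of them above 0, where 49.9% of all genes were, with a median of 0.26. By 2-fold or more, 3 of 14 were higher, against 0.734% of all genes, and 0 were lower, against 0.0703%. The summed linear level of the 14 was 57072 with Cre and 37578 with GFP. Lyz2 alone held 50.8% of that sum with Cre and 43.1% with GFP, and the 13 others summed to 28090 and 21381. Emr1 (1.08), Cd14 (1.04), the osteoclast phosphatase gene Acp5 (1.04) and Lyz1 (0.91) had the widest differences. Mrc1 (-0.73) was 1.66-fold higher with GFP, and Cd68 (-0.05), Csf1r (0.08) and Ctsk (0.10) were near level, all 4 named after their values were seen. Calcr, Ocstamp, Dcstamp and Oscar had no row. Of 7 neutrophil markers, 4 were measured, all above 0, again beside 49.9% of all genes, and led by Camp (1.40). Their summed level was 1045 with Cre and 602 with GFP, while Ly6g, Mpo and Elane had no row. In RNA from whole cultures, more cells of a type and more RNA per cell cannot be told apart, and the part of these cells in the differences of Mmp9, Mmp12 or any other member was not tested. Synovial and fibroblast markers had 2 of 8 measured genes above 0, beside 49.9% of all genes, with a median of -0.14. The widest differences were those of the joint lubricant gene Prg4 (0.47), Pdgfra (0.43), Pdgfrb (-0.35) and Col1a2 (-0.32).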

How the data were processed

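Of tools, TopHat2 2.0.6, HTSeq and bcl2fastq 1.8.4 are listed in the submitters' processing notes, with the mouse build mm10, which is the GRCm38 assembly. The authors deposited log2 values of normalized counts for 13138 genes, with 1 column per library, their mean and their difference (GFP minus Cre). The lowest mean log2 value among these genes was 5.00. A gene with no row may thus have fallen below a cutoff, and is not shown to be absent. The transform is not given in the sources used here. A regularized log is inferred from the column heading rLogFC and from the narrow spread of low values, and would understate differences of genes with few reads. Folds are folds of these values.

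Differences were recomputed as Cre minus GFP with Python 3.11.15, numpy 2.4.6 and pandas 2.3.3. The comparison step was run on simulated data with shifts far wider than the noise. That run checks the code and says nothing of the error in these data. A mean of 50 on the linear scale kept 12809 genes and all 10 members. Members and lists were chosen with earlier results of these data known. Besides members, the genes named are Hdac3, up to 4 of each list by absolute difference, and those next to Mmp3, Mmp13, Mmp9, Timp1 and Timp3 in the order of differences. Other genes were named after their values were seen (Runx2, Col2a1, Lyz2, Mrc1, Cd68, Csf1r, Ctsk, the neighbours on the chromosome). Protein motifs, although planned, were not searched. Alternatives were other scalings, minimums, fold thresholds, balances and a wider distance.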

Additional observations from a re-analysis of the deposited data

How the results depend on the processing

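With 1 library per group there is no replicate spread, so a value was taken as moved past 0.1 on the log2 scale and a count past 1.5 times. Scaling to a median of 0, to equal totals or to equal totals without Rn45s and Lars2 shifted every gene alike, with offsets of at most -0.015 in size, and turned no member. The counts depended on the fold threshold: at 4-fold, 1 member was higher (Mmp3), with 15 of all genes higher and 1 lower. At 1.5-fold, 1 member was lower (Timp3), with 288 of all genes higher and 122 lower. The balance of 1.01 kept its sign under every alternative run. The scalings cannot move it, and every alternative kept Timp2 or Timp3, both lower in the library labelled Cre. A balance against Timp1 alone was not run. The 7 pairs over Timp1 had a median of -0.49, with 3 higher and 4 lower, so the sign depends on the inhibitors taken. The balance was 0.35 with medians, which is the single pair Mmp14 over Timp2, and 2.14 with sums per kilobase. With sums not divided by length it was 2.38, and with secreted proteases 1.46. It was 0.63 without Mmp3, 1.52 without Timp1 and 0.61 without Timp3. Without Mmp3, Mmp9 and Mmp13, an alternative chosen after seeing the data, it was 0.16. The neighbours of members that were 2-fold higher went from 1 to 2 at 1 Mb. Another pseudocount was not run, since the values are already on a log scale. The depth is unknown, and genes with no row could not be compared. No paired analysis was possible because there is only 1 library per group.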
